A study of Rattus norvegicus with 2 samples.

Results

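The genes of MHC class I antigen processing examined here were B2m, Tap1, Tap2, Tapbp, Psmb8, Psmb9, Psmb10 and Nlrc5, which are 8 of the 23373 rat genes counted in both single-cell libraries. They were chosen by gene name alone, and each has 1 rat row and 1 mouse row among the 49279 genes of the combined rat and mouse reference. Their levels were read in cells of 12 marker-defined classes, separately for cells of the Sprague Dawley (SD) rat, rat cells of the chimera and mouse cells of the chimera.

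Nearly every nucleated cell cuts some of its proteins into peptides and displays them on MHC class I molecules, where cytotoxic T cells inspect them. The proteasome makes the peptides, the TAP transporter carries them into the endoplasmic reticulum, tapasin holds an empty class I molecule beside the transporter, and the loaded heavy chain leaves for the surface bound to beta-2-microglobulin. Interferons raise most of these genes together, and under interferon gamma the catalytic subunits of the standard proteasome are replaced by those of the immunoproteasome. Skeletal muscle fibres are known for low class I display in healthy tissue, whereas endothelium and leukocytes are known for high display.

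B2m (ENSRNOG00000017123) encodes beta-2-microglobulin, the invariant light chain of the class I molecule. Tap1 (ENSRNOG00000000457) and Tap2 (ENSRNOG00000000455) encode the subunits of the peptide transporter, and Tapbp (ENSRNOG00000029500) encodes tapasin. Psmb8 (ENSRNOG00000000456), Psmb9 (ENSRNOG00000000459) and Psmb10 (ENSRNOG00000019353) encode the catalytic subunits of the immunoproteasome, which stand in for Psmb5, Psmb6 and Psmb7 respectively. Nlrc5 (ENSRNOG00000048222) encodes the transactivator of class I genes.

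The study made rat-mouse chimeras by placing mouse induced pluripotent stem cells into SD rat morulae, and asked which cell types of chimeric skeletal muscle the mouse cells formed. The donor cells were a single edited line that carried the Pax7-nGFP reporter and a CRISPR/Cas9-edited Dmd mdx mutation, so every chimera mouse cell shares that genotype, while the rat cells of both animals were SD, and the labels give them no edit. One chimera and 1 SD rat control were profiled, with skeletal muscle pooled from the whole body, digested with collagenase II, cleared of red cells and sorted for live cells by Calcein Violet before droplet 3′ RNA sequencing. The ages were not given in the sources used here. Each group was 1 library of 1 animal, so no difference below has a replicate check and no test between animals was possible.

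Because the members are often described as a group moved by interferon, the stretch of 250 bases before the start of 5 rat members is shown, 5′ to 3′ on the strand of the gene. These are the light chain, both transporter genes, whose ratios went in opposite directions in some classes but not in others, and the pair of immunoproteasome genes with the widest range across classes. Capitals mark a match to the interferon-stimulated response element core (GAAA, any 2 bases, then GAAA, on either strand) or to the gamma-activated site (TTCNNNGAA, a palindromic pattern). The sequences are from RefSeq, build GRCr8, which is not the build of the counted data.
B2m: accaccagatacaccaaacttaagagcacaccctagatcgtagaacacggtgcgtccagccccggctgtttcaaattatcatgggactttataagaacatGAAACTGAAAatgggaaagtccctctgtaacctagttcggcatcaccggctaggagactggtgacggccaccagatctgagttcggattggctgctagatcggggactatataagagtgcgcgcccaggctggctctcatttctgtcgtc
Tap1: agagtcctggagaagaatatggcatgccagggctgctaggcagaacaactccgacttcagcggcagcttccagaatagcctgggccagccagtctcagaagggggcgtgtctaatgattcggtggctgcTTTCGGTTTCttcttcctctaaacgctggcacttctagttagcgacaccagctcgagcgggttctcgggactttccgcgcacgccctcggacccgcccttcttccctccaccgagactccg
Tap2: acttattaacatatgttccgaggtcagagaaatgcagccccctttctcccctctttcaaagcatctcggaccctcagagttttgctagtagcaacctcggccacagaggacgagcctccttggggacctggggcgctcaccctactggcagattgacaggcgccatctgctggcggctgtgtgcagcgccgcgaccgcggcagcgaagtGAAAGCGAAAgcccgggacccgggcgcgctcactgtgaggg
Psmb8: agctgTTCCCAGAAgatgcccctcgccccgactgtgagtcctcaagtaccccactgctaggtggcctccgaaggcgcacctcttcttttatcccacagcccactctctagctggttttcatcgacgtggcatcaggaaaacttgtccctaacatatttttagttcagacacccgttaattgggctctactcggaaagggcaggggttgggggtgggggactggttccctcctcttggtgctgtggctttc
Psmb9: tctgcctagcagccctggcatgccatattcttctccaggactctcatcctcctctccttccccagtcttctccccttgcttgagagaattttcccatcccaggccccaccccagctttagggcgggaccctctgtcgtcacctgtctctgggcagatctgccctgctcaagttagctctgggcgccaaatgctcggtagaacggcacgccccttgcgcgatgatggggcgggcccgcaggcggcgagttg
These windows lie at chr3:129549080-129549329 on the plus strand for B2m, chr20:4668544-4668793 on the minus strand for Tap1, chr20:4652297-4652546 on the minus strand for Tap2, chr20:4657032-4657281 on the minus strand for Psmb8 and chr20:4668750-4668999 on the plus strand for Psmb9. They sit directly upstream of the annotated start of each gene.

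A promoter was found for 7 of the 8 members, all but Nlrc5. The interferon-stimulated core lay at -150 to -141 from the start in B2m, at -121 to -112 on the reverse strand in Tap1 and at -41 to -32 in Tap2. Tapbp held overlapping copies at -26 to -17 and -20 to -11, and Psmb10 held copies at -73 to -64 and -17 to -8. The same core was found in 3.41% of 33469 rat promoter windows (1140 windows). The windows of Psmb8 and Psmb9 did not contain these letters. Psmb8 held a gamma-activated site at -245 to -237, a pattern found in 7.67% of all windows. The kappaB pattern (GGG, any 5 bases, then CC, on either strand, with overlapping matches) occurred in B2m, Tap1, Tapbp and Psmb9, but it occurred in 42.3% of all windows too. Tap1 and Psmb9 are transcribed away from each other, with 456 bases between their starts, so that their windows share 44 bases.

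The chimera library held 13299 barcodes and 118872850 unique molecular identifiers (UMIs, each taken as 1 captured RNA molecule), with a median of 7407 per barcode, and the SD rat library held 10117 barcodes and 70957559 UMIs, with a median of 5373. After filtering, 8816 SD rat cells, 8230 chimera rat cells (at most 20% of UMIs on mouse genes) and 1847 chimera mouse cells (at least 80%) remained, and 1653 chimera barcodes between these limits were left out. The chimera rat cells carried a median of 11.2% of UMIs on mouse genes, and free RNA, mixed droplets and misassigned reads were not separated. The libraries shared 43 barcode sequences. Chimera reads were counted against rat and mouse genes together, and SD rat reads against rat genes only.

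Cells were placed in a class by at least 3 of its marker genes in their own species and at least 2 more than of any other class, which left 16.2% of SD rat, 11.8% of chimera rat and 7.53% of chimera mouse cells without a class. Each class is named for its markers: endothelial (EC)-like, lymphatic EC-like, pericyte or mural-like, fibro-adipogenic progenitor (FAP)-like, tenocyte-like, myogenic progenitor (MP)-like, myocyte-like, Schwann or glial-like, myeloid-like, T or NK-like, B-like and mast-like. EC-like cells numbered 1001 in the SD rat, 677 among chimera rat and 1103 among chimera mouse cells. FAP-like cells numbered 3189, 2684 and 124, and MP-like cells 107, 127 and 34 in the same order. T or NK-like cells numbered 44, 611 and 85, so the SD rat values of this class rest on few cells. Mouse lymphatic EC-like, pericyte or mural-like and mast-like cells numbered under 20 each and were left out.

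A level below is the UMIs of a gene summed over the cells of a class, per 1000000 UMIs (CPM) on the 16109 nuclear genes that have 1 partner of the same name in the other species. Brackets hold 95% exact Poisson intervals for levels, exact Clopper-Pearson intervals for shares and exact binomial intervals for log2 ratios. These cover counting error only, not the spread between animals. Counts from 3′ libraries do not grow with transcript length, but a rat gene and its mouse partner can differ in how well the annotation covers the 3′ end, so a mouse to rat ratio compares 2 annotations as well as 2 kinds of cell.

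Tapbp showed how far that can go. Its rat row received 9 UMIs in all classed SD rat cells and 8 in all classed chimera rat cells, whereas its mouse row received 1968 UMIs in chimera mouse cells. In the chimera rat cells, 64 of the 72 UMIs on either Tapbp row (88.9%) fell on the mouse row. No level of rat Tapbp is read from these data, and Tapbp is left out of every count of members below unless it is named. In mouse cells it was at 226 CPM in EC-like, 171 CPM in myeloid-like, 140 CPM in FAP-like, 12.2 CPM in MP-like and 11.9 CPM in myocyte-like cells. For the other members, the mouse row took between 0.55% (B2m) and 14.3% (Psmb10) of the UMIs in chimera rat cells.

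B2m was the most abundant member in every class of each population. In the SD rat it stood at 6888 CPM [6563, 7224] in T or NK-like cells, 5870 CPM [5788, 5954] in EC-like cells, 3807 CPM [3785, 3829] in FAP-like cells, 1922 CPM [1815, 2034] in MP-like cells and 404 CPM in myocyte-like cells. The order was T or NK, EC, mast, myeloid, FAP, B, lymphatic EC, pericyte or mural, Schwann or glial, MP, tenocyte and myocyte. The intervals of mast and myeloid, of B and lymphatic EC, and of pericyte and Schwann cells overlapped, and the other neighbours in the order were apart. Single cells of a class were spread widely: per-cell B2m in SD rat EC-like cells had a 10th percentile of 1076 CPM, a median of 5329 CPM and a 90th percentile of 10004 CPM.

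The immunoproteasome genes were concentrated in leukocyte-like and EC-like cells. In the SD rat, Psmb8 stood at 221 CPM [153, 309] in B-like, 184 CPM [134, 246] in T or NK-like, 115 CPM in myeloid-like and 96.3 CPM [85.9, 108] in EC-like cells, against 18.5 CPM in FAP-like, 6.12 CPM in myocyte-like and 3.94 CPM in tenocyte-like cells. Psmb9 stood at 143 CPM [89.8, 217] in B-like, 135 CPM in T or NK-like, 129 CPM in EC-like and 127 CPM in myeloid-like cells, which did not differ beyond their intervals. SD rat MP-like cells had 99.9 CPM of Psmb9 [76.6, 128] but 25.8 CPM of Psmb8, so the 2 genes parted in that class. Psmb10 had the narrowest range of the 3, from 24.98 CPM in pericyte or mural-like to 221 CPM in B-like cells, and was at 38.4 CPM in myocyte-like cells.

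The transporter genes ranked differently from each other. Tap1 was highest in SD rat EC-like cells, at 111 CPM [100, 123], followed by MP-like cells at 82.2 CPM [61.2, 108], and lowest in myocyte-like cells at 10.4 CPM. Tap2 was at 49.1 CPM [41.8, 57.3] in EC-like cells, within the intervals of B-like cells (78.2 CPM, 12 UMIs) and T or NK-like cells (53.1 CPM, 13 UMIs), and at 2.04 CPM in myocyte-like cells. Nlrc5 was the scarcest member with a usable rat row, at 12.6 CPM [9.02, 17.1] in EC-like, 9.87 CPM in myeloid-like and 1.65 CPM in FAP-like SD rat cells, with 0 UMIs in lymphatic EC-like, Schwann or glial-like and mast-like cells. These zeros allow levels of up to 6.56, 12.4 and 10.2 CPM respectively (3 counts over each class).

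EC-like cells exceeded FAP-like cells for every member that had at least 50 summed UMIs, in all 3 populations. In the SD rat, 7 of 7 members were over 1.5-fold higher in EC-like cells, where 40.7% of 11956 genes were, and 0 were lower, where 21.6% of genes were. The log2 ratios were 2.93 [2.30, 3.56] for Nlrc5, 2.38 [2.17, 2.58] for Psmb8, 2.26 [2.09, 2.44] for Psmb9, 1.08 for Psmb10, 1.04 for Tap1, 1.03 for Tap2 and 0.62 for B2m. The median of all tested genes was itself 0.38 higher in EC-like cells, and relative to it 6 of the 7 members stayed past the fold, all but B2m at 0.25. In chimera rat cells 7 of 7 were higher and 0 lower (36.4% and 22.3% of all genes), and in chimera mouse cells 8 of 8 including Tapbp were higher and 0 lower (36.8% and 19.7%; 7 of 8 relative to the median of all genes, at 0.28, with Tapbp inside the fold), with log2 ratios of 3.67 for Psmb8, 3.66 for Psmb9, 3.11 for Tap1 and 2.49 for Nlrc5.

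Within the rat endothelium the members were not even. Summed without B2m, the other 7 members reached 720 CPM [657, 788] in 129 SD rat EC-like cells with more venous than arterial markers, 500 CPM [453, 551] in 145 cells with more arterial markers and 406 CPM [377, 437] in the remaining 727. Venous EC-like cells had 167 CPM of Tap1 and 149 CPM of Psmb8, against 110 CPM and 95.1 CPM in arterial cells. Chimera rat cells gave the same order, with sums of 734 CPM [684, 786], 547 CPM [488, 611] and 509 CPM [472, 549]. In chimera mouse cells, where these sums include Tapbp, the order differed, with 1826 CPM [1757, 1898] in venous, 2122 CPM [2049, 2197] in arterial and 1879 CPM [1831, 1928] in the remaining cells. Without Tapbp they were 1646 CPM [1580, 1713], 1822 CPM [1755, 1892] and 1669 CPM [1623, 1715]. The venous intervals overlapped those of the remaining cells both ways. Nlrc5 still stood higher in mouse venous cells (179 CPM [158, 202]) than in mouse arterial cells (98.2 CPM [83.0, 115]).

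The chimera rat cells were compared with SD rat cells of the same class to ask whether host cells differed between the animals. The members did not move as 1 block: in T or NK-like and B-like cells Psmb8 and Psmb9 stood higher while Psmb10 stayed within the fold and the Tap2 intervals included 0, and the FAP-like sum differed little. Across classes with at least 50 summed UMIs, Psmb9 was over 1.5-fold higher in 6 of 9 classes, Psmb8 in 4 of 6, Nlrc5 in 3 of 4, B2m in 2 of 12, Tap1 in 2 of 8 and Psmb10 in 1 of 9. By class, 3.06% (myocyte-like) to 17.7% (T or NK-like) of all genes were higher. Tap2 was over 1.5-fold lower in 4 of 6 classes and higher in none of them, and Tap1 was lower in 1 of 8. By class, 6.25% (FAP-like) to 27.7% (myocyte-like) of all genes were lower. Psmb9 in tenocyte-like, Psmb8 in myocyte-like and Nlrc5 in FAP-like cells, counted as higher here, fell below 0 under alternatives given below, with intervals that included 0.

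In T or NK-like cells, 4 of 7 members were past 1.5-fold higher and 1 lower, where 17.7% of all genes were higher and 24.2% lower. Psmb9, the immunoproteasome subunit that replaces Psmb6, stood at 396 CPM [376, 416] in chimera rat and 135 CPM [92.9, 189] in SD rat cells, a log2 ratio of 1.55 [1.06, 2.10]. Psmb8 stood at 406 CPM [386, 426] and 184 CPM [134, 246], a log2 ratio of 1.14 [0.71, 1.60]. The 2 libraries did not overlap in these intervals for either gene. Nlrc5 stood at 60.8 CPM [53.3, 69.1] and 12.3 CPM from 3 UMIs, a log2 ratio of 2.31 [0.75, 4.60]. Tap1 was higher by 0.83 [0.01, 1.80] and Tap2 lower, at -0.87 with an interval that included 0 [-1.71, 0.08]. Thinned to 1000 UMIs per cell, Psmb9 was seen in 28.8% of 607 chimera rat and 11.4% of 44 SD rat T or NK-like cells, against 71.7% and 45.5% unthinned, and in FAP-like cells, a class with low Psmb9, in 3.40% and 2.93%.

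The class was not made of the same cells in both animals. Among T or NK-like cells, Cd3e, a T cell receptor component, was detected in 61.4% of SD rat and 86.1% of chimera rat cells, while Nkg7, a gene of cytotoxic granules, was detected in 43.2% and 18.7%. The part of this makeup in the ratios was not tested. The median of all genes tested in the class was -0.11.

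B-like cells gave a similar picture, with 4 of 6 members higher and 1 lower, where 13% of all genes were higher and 25.4% lower. Psmb9 stood at 391 CPM [358, 426] in chimera rat and 143 CPM [89.8, 217] in SD rat cells (log2 ratio 1.45 [0.83, 2.13]), Psmb8 at 462 CPM and 221 CPM (1.06 [0.56, 1.60]) and B2m at 6533 CPM [6395, 6672] and 3446 CPM [3158, 3752] (0.92 [0.80, 1.05]). Psmb10 did not follow them, at 191 CPM and 221 CPM. The fourth higher member was Tap1 at 0.60 [-0.59, 2.09], from 6 SD rat UMIs, and the lower one Tap2 at -0.62 [-1.52, 0.40], and both intervals included 0. The median of all genes tested in B-like cells was -0.20.

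Myeloid-like cells had 3 of 7 members higher and 0 lower, where 10.7% of all genes were higher and 7.19% lower. These were Nlrc5 at 1.05, Psmb9 at 0.75 and Psmb8 at 0.66 on the log2 scale. Psmb8 stood at 182 CPM in chimera rat and 115 CPM in SD rat cells. Marker genes of the class lay on both sides in the same cells. C1qa, a complement gene of resident macrophages, was at 3442 CPM and 4574 CPM, C1qb at 2683 CPM and 4162 CPM and Cd14 at 153 CPM and 262 CPM. Csf1r, Mrc1 and Spi1 were also lower in chimera rat cells. Clec4a3 was at 369 CPM and 215 CPM and Lyz2 at 12816 CPM and 9469 CPM, and Cd68 and Csf3r were also higher. The part of the makeup of this class in the ratios was not tested.

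In EC-like cells 1 of 7 members was higher and 1 lower, where 11.5% and 11% of all genes were. Psmb9 stood at 208 CPM [192, 225] in chimera rat and 129 CPM [116, 141] in SD rat cells, a log2 ratio of 0.70 [0.52, 0.88]. Tap2 stood at 30.6 CPM [24.7, 37.5] and 49.1 CPM [41.8, 57.3], a log2 ratio of -0.68 [-1.07, -0.30]. The other members lay between -0.32 (Tap1) and 0.47 (Psmb10). Adding the UMIs on the mouse row of each gene left these ratios at 0.59 for Psmb9 and -0.69 for Tap2. That sum does not recover any reads counted on neither row. In the cells with 0 UMIs of a list of 6 leukocyte genes they were 0.70 and -0.62, and that list stood at 93.8 CPM in chimera rat and 73.3 CPM in SD rat cells. Genes of myofibres, summed, were at 7508 CPM in chimera rat and 16287 CPM in SD rat EC-like cells, and their part in the ratios was not tested.

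FAP-like cells, the largest class, gave close sums. The 7 members without B2m summed to 162 CPM in chimera rat and 170 CPM in SD rat cells. Tap2 stood at 15.6 CPM and 24.02 CPM (log2 ratio -0.62 [-0.80, -0.44]) and Nlrc5 at 2.48 CPM and 1.65 CPM (0.59 [0.03, 1.16]), which were the 1 lower and 1 higher member of 7, where 6.25% and 10% of all genes were. Nlrc5 turned to -0.17 [-1.38, 0.87] when rat cells were called at no more than 10% mouse UMIs. The leukocyte list stood at 40.8 CPM in chimera rat and 11.5 CPM in SD rat FAP-like cells, all 6 genes detected in both, and in cells with 0 leukocyte UMIs Nlrc5 was at 0.44. Among the remaining classes, lymphatic EC-like cells had 2 of 3 members higher and 0 lower (10.5% and 12.6% of all genes), led by B2m at 5256 CPM and 3139 CPM (0.74 [0.64, 0.84]). MP-like cells had 1 of 4 higher and 0 lower (8.92% and 10.9%), Psmb10 at 0.73 with an interval that included 0 [-0.08, 1.59].

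Tenocyte-like cells had 1 of 5 higher and 0 lower (9.04% and 10.7% of all genes), Psmb9 at 0.97, and myocyte-like cells 1 of 5 higher (3.06%) and 1 lower (27.7%), Psmb8 at 1.13 and Tap1 at -0.83. Leukocyte genes, summed, were higher in chimera rat cells of both classes, as Psmb9 and Psmb8 were and Tap1 was not. Their part in the ratios was not tested. The list of 6 leukocyte genes, of which 5 were detected and Cd52 was at 0 in both classes of both animals, summed to 105 CPM in chimera rat and 50.4 CPM in SD rat tenocyte-like cells, and to 122 CPM and 77.2 CPM in myocyte-like cells. In the cells of these classes with 0 leukocyte UMIs, Psmb9 in tenocyte-like cells stood at -0.049 [-0.94, 0.84] and Psmb8 in myocyte-like cells at -1.21 [-3.01, 0.28]. The median of all genes in myocyte-like cells was -0.28. In the pericyte or mural-like, Schwann or glial-like and mast-like classes only B2m had 50 summed UMIs, at -0.15, -0.34 and -0.01, within the fold. In those classes 12.7%, 11.7% and 7.97% of all genes were higher past the fold, and 12.5%, 16.4% and 16.8% lower.

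**Figure D1:**
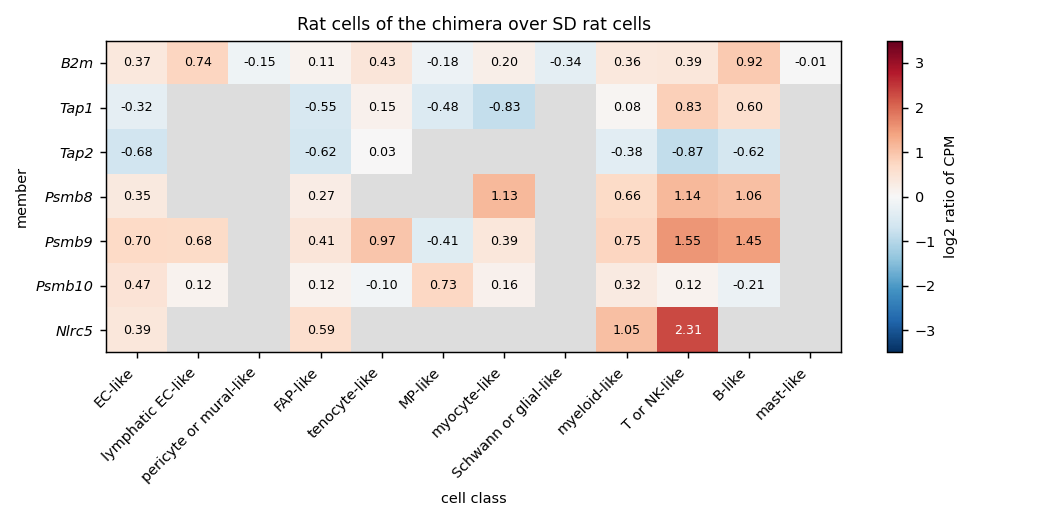
Log2 ratio of CPM, rat cells of the chimera over SD rat cells, for 7 members by cell class; grey marks under 50 summed UMIs. T or NK-like and B-like cells hold the highest ratios for Psmb9 (1.55 and 1.45), and Tap2 is at or below 0.03 in every class shown.

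The mouse cells of the chimera were then set against the rat cells of the same animal, which come from one animal but differ in species, genome and annotation. In mouse EC-like cells 6 of 7 members were over 1.5-fold higher, where 32.4% of all genes were, and B2m alone was lower, where 22.4% of all genes were. Nlrc5 stood at 126 CPM [117, 135] in mouse and 16.5 CPM in rat EC-like cells (log2 ratio 2.94 [2.52, 3.38]), Psmb8 at 677 CPM [656, 698] and 122 CPM [110, 136] (2.47 [2.31, 2.62]) and Tap2 at 148 CPM and 30.6 CPM (2.27). Tap1 stood at 182 CPM [171, 193] and 88.9 CPM [78.6, 100] (1.03). These were the members with the widest separation, and B2m went the other way, at 4808 CPM [4752, 4864] and 7571 CPM [7473, 7669] (-0.66). Thinned to 1000 UMIs per cell, Psmb8 was seen in 45.3% of 995 mouse and 9.11% of 615 rat EC-like cells (75.1% and 30.6% unthinned), and in FAP-like cells in 3.25% and 2.06%.

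The leukocyte list was at 39.8 CPM in mouse and 93.8 CPM in rat EC-like cells, with all 6 genes detected in both. Its part in the ratios was not tested. The median of all genes was 0.14 in this comparison. Without Tapbp, the other 6 members summed to 1702 CPM in mouse and 599 CPM in rat EC-like cells, a log2 ratio of 1.51 [1.44, 1.58].

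B2m was lower in mouse cells in 9 of 9 classes and past 1.5-fold in 8, all but Schwann or glial-like cells at -0.57, a class in which 34.7% of all genes were lower and 22.7% higher past the fold. Nlrc5 was past 1.5-fold higher in 5 of 5 classes tested, Tap2 in 5 of 5 and Psmb8 in 6 of 6. By class, 22.7% (Schwann or glial-like) to 33.5% (FAP-like) of all genes were higher, and 22.4% (EC-like) to 43.1% (myocyte-like) lower. In the myocyte-like class 1 cell held 15 of the 17 mouse Psmb8 UMIs. In the classes too sparse to test, Psmb8 was at 4.07 CPM in mouse and 13.9 CPM in rat MP-like cells. It was at 2.62 CPM and 8.53 CPM in tenocyte-like, and 162 CPM and 28.7 CPM in Schwann or glial-like cells. Tap1, Psmb9 and Psmb10 went in different directions in different classes. Since each gene is compared through its own pair of annotations, a direction that holds in every class tested cannot be told apart from an annotation difference of that gene.

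The leukocyte-like classes had members on both sides. Myeloid-like cells had 5 of 7 higher and 1 lower (25.3% and 34% of all genes), B-like cells 4 and 1 of 7 (23.9% and 27.1%), and T or NK-like cells 3 and 2 of 7 (33.3% and 23.3%). Psmb8 reached 920 CPM in mouse myeloid-like cells against 182 CPM in rat ones. Cd14 was at 2201 CPM in mouse and 153 CPM in rat myeloid-like cells and C1qa at 380 CPM and 3442 CPM, so the myeloid-like cells of the 2 species differed in makeup.

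The MP-like cells, a class marked by satellite cell genes, had low levels on the mouse side. They shared this with mouse tenocyte-like cells for B2m, Tap1, Psmb8 and Psmb9, as given below. All 34 mouse MP-like cells together held 17 UMIs of the 7 members without B2m, at 69.3 CPM [40.3, 111], against 217 CPM [187, 250] in 127 rat MP-like cells of the chimera and 264 CPM [225, 308] in 107 of the SD rat. Tapbp gave 3 of the mouse UMIs and 0 in both rat groups. B2m stood at 297 CPM [233, 374], against 1698 CPM [1613, 1787] and 1922 CPM [1815, 2034]. Psmb9 had 0 UMIs in the mouse MP-like cells, against 75.05 CPM and 99.9 CPM, at least 6.14-fold lower than in the chimera rat cells when 3 counts over the class are taken as the limit. Not every member was lower: Tap2 stood at 12.2 CPM from 3 UMIs, against 11.5 CPM in chimera rat MP-like cells, and Nlrc5 at 12.2 CPM from 3 UMIs, against 6.93 CPM.

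Of 3 members with at least 50 summed UMIs in MP-like cells, 3 were lower in mouse cells and 0 higher, where 29% of all genes were lower and 23.6% higher. B2m was at -2.51 [-2.87, -2.17] and Tap1, with 2 mouse UMIs, at -2.85 [-5.94, -0.93]. Thinned to 1000 UMIs, B2m was seen in 27.3% [13.3, 45.5] of 33 mouse MP-like cells and in 74.0% of 127 rat ones, against 67.6% and 100% unthinned, and in 93.2% of mouse EC-like cells. Of the 86 B2m UMIs in the mouse MP-like cells 13 fell on the rat row (15.1%), and adding both rows gave -2.22. Called at 90% mouse UMIs, the ratio was -2.49. Of the leukocyte list 1 of 6 genes was detected in mouse MP-like cells, at 1 UMI, and Ptprc, the defining leukocyte gene, was at 0.

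The distance between EC-like and MP-like cells was accordingly unequal. The 7 members without B2m, Tapbp included, were higher in EC-like than MP-like cells by 0.90 [0.67, 1.14] in the SD rat, 1.46 [1.25, 1.69] in chimera rat cells and 4.80 [4.12, 5.58] in chimera mouse cells, on the log2 scale. In the SD rat 4 of 6 members were higher past the fold and 0 lower (34.3% and 28.6% of all genes), with Tap1 at 0.44 and Psmb9 at 0.36 within it. In chimera rat cells 7 of 7 were higher (31.4%, and 27.7% lower), and in chimera mouse cells 8 of 8 including Tapbp (37.8%, and 26.7% lower).

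Mouse tenocyte-like cells, 35 in number, also had 3 of 4 members lower (28.6% of all genes) and 0 higher (25.5%). Psmb8, not tested there, was at 2.62 CPM, beside 4.07 CPM in mouse MP-like cells. B2m stood at 572 CPM against 2156 CPM in rat cells (-1.91), Tap1 had 1 UMI against 152, and Psmb9 had 0 UMIs against 65, at least 2.35-fold lower. Mouse FAP-like cells had 3 of 7 higher and 2 lower (33.5% and 23.5% of all genes): Tap2 (1.09), Psmb8 (1.25) and Nlrc5 (3.18) higher, B2m (-1.48) and Tap1 (-0.80) lower. The median of all genes in FAP-like cells was 0.21.

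The mouse myocyte-like class had 2 of 4 members higher and 1 lower (24.1% and 43.1% of all genes), and its values rested on 1 cell. Of its 30 cells, 1 held 39 of the 42 UMIs of the 7 members without B2m, 14 of 14 Psmb9 UMIs and 15 of 17 Psmb8 UMIs, and the same cell held 71 of the 73 UMIs of the leukocyte list. The ratios of 3.91 for Psmb8 and 3.47 for Psmb9 in that class are those of this cell, and without the cell of most UMIs in each group Psmb8 stood at 1.75, from 2 mouse UMIs, and B2m at -2.56.

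**Figure D2:**
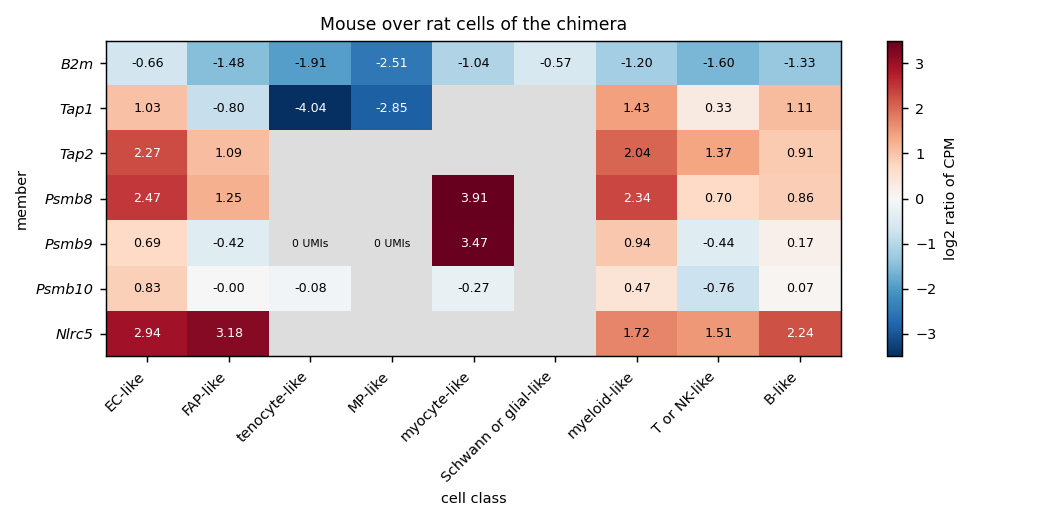
Log2 ratio of CPM, mouse over rat cells of the chimera, for 7 members by cell class; grey marks under 50 summed UMIs, and cells marked 0 UMIs had none in the mouse cells. B2m is below 0 in all 9 classes, Tap2, Psmb8 and Nlrc5 are above 0 wherever shown, and the tenocyte-like and MP-like columns hold the lowest Tap1 values (-4.04 and -2.85).

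The use of immunoproteasome against standard subunits was read as the share of Psmb8, Psmb9 and Psmb10 in the UMIs of all 6 catalytic subunit genes, which compares genes within the same cells. In SD rat cells the share was 56.6% [48.5, 64.4] in B-like, 52.3% [45.7, 58.9] in T or NK-like, 49.0% [46.9, 51.2] in EC-like and 43.5% in myeloid-like cells. It was 17.1% in FAP-like, 16.8% [13.8, 20.1] in MP-like, 10.1% in tenocyte-like and 5.84% in myocyte-like cells. Mast-like cells, at 29.8% [23.2, 37.1], and lymphatic EC-like cells, at 32.5% [27.1, 38.3], lay between these sets.

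Chimera rat cells had 69.5% [67.4, 71.6] in B-like and 60.5% [59.3, 61.7] in T or NK-like cells, above the SD rat intervals, and 46.1% [44.3, 47.9] in EC-like and 17.0% in FAP-like cells. The higher level of Psmb9 in chimera rat EC-like cells was therefore not a higher share, since Psmb5, Psmb6 and Psmb7 together stood at 541 CPM there and 333 CPM in SD rat EC-like cells. In chimera mouse cells the share was 70.4% [69.5, 71.2] in EC-like, 25.8% [22.7, 29.2] in FAP-like and 2.78% [1.03, 5.95] in MP-like cells (6 of 216 UMIs). It was 6.42% [3.56, 10.5] in mouse tenocyte-like cells, an interval that overlapped that of MP-like cells. The mouse EC-like share came mainly from Psmb8, which made up 79.8% of its pair with Psmb5 in mouse cells and 31.5% in chimera rat cells. Psmb9 made up 61.9% and 56.6% of its pair with Psmb6.

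**Figure D3:**
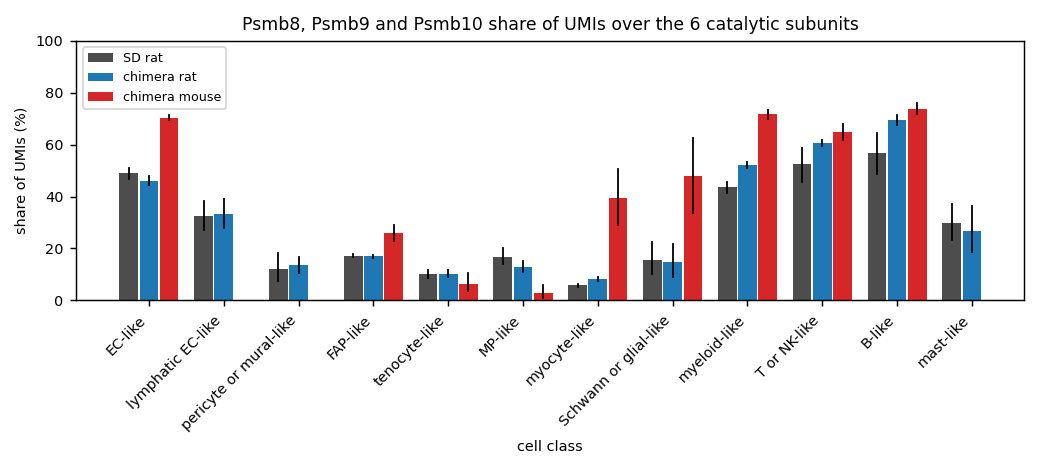
Share (%) of Psmb8, Psmb9 and Psmb10 in the UMIs of the 6 catalytic proteasome subunit genes, by cell class, for SD rat, chimera rat and chimera mouse cells. Bars are shares of summed UMIs and lines are 95% exact intervals; shares run from 2.78% in mouse MP-like cells to 73.8% in mouse B-like cells.

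Other genes of the pathway were read from a list of 20, of which 18 had a rat row. In chimera rat over SD rat EC-like cells 3 were over 1.5-fold higher, 2 lower, 12 within the fold and 1 not tested, where 11.5% of all genes were higher and 11% lower. Psme2, a subunit of the PA28 proteasome activator, was higher at 0.76 [0.57, 0.95], as were Psmb5 and Psmb6, and Erap1, the peptidase that trims peptides in the endoplasmic reticulum, was lower at -0.98 [-1.33, -0.64]. In those chimera rat cells 41.3% of Erap1 UMIs (74 of 179) fell on the mouse row, which held 24.4 CPM beside 34.6 CPM on the rat row, against 68.1 CPM in SD rat cells, so the lower value rests on which rows are counted. Psme1, the partner of Psme2, stood at 1064 CPM in chimera rat and 613 CPM in SD rat T or NK-like cells, and in that class 3 of the list were higher, 1 lower and 13 within the fold, near the 17.7% of all genes that were higher. In FAP-like cells 2 of the list were higher, 2 lower and 14 within the fold, where 10% of all genes were higher and 6.25% lower. Irf1, an interferon-responsive factor that binds the element shown above, was among the higher, at 553 CPM in chimera rat and 299 CPM in SD rat FAP-like cells (0.89 [0.85, 0.93]). Any link to the levels of the members was not tested.

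In mouse over rat cells of the chimera, 5 of the list were higher, 4 lower and 9 within the fold in EC-like cells (32.4% and 22.4% of all genes higher and lower), and 3 were higher, 5 lower and 6 within in MP-like cells (23.6% and 29%), so neither split stood far from that of all genes. Psme1 stood at 61.1 CPM in mouse and 382 CPM in rat MP-like cells (-2.64 [-3.499, -1.90]), and at 482 CPM and 618 CPM in EC-like cells. Irf1 stood at 53.0 CPM and 135 CPM in MP-like cells.

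The heavy chains that pair with B2m were looked up by name after the values of the members were seen, and reads of these near-identical genes may be split among copies. No rat gene counted was named RT1-A, so the rat heavy chain levels may be incomplete and are not set against the mouse ones. RT1-T24-4, the most abundant rat class I gene by name in EC-like cells, stood at 695 CPM in EC-like, 244 CPM in FAP-like and 90.2 CPM in MP-like SD rat cells. In mouse cells H2-K1 stood at 3133 CPM in EC-like, 722 CPM in FAP-like and 187 CPM in MP-like cells, and H2-D1 at 3467 CPM, 1166 CPM and 232 CPM. The order of the 3 classes was the same for these 3 genes as for B2m. It was not the same for every rat class I gene: in the SD rat RT1-CE1, RT1-CE11, RT1-CE14, RT1-CE2 and RT1-T24-1 stood higher in MP-like than in FAP-like cells. RT1-T24-1 stood at 37.1 CPM and 3.03 CPM and RT1-CE1 at 12.9 CPM and 4.09 CPM, and the intervals of the other three overlapped.

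Log levels across the 12 classes of the SD rat were compared with the mean of the standardized log levels of the 7 members other than Tapbp. The most alike of 7984 genes with at least 500 UMIs were Resf1 (Pearson r = 0.94), Mylip (0.94), Fam91a1 (0.92), Macroh2a1 (0.90) and Phactr2 (0.90). In the chimera rat cells the same 5 genes gave 0.83, 0.81, 0.59, 0.92 and 0.81. Among the members, Tap2 gave 0.92, Psmb8 0.89 and Psmb9 0.88, and Tap1 the lowest value at 0.51. Psmb8 and Psmb9 gave 0.82 with each other in the SD rat, 0.94 in chimera rat and 0.99 over the 9 mouse classes. The classes share 1 library and differ in depth, and members are part of that mean, so these values are descriptions only.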

How the data were processed

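Single-cell 3′ RNA counts of 1 chimera and 1 SD rat were read as the raw UMI counts per gene and barcode that the authors deposited. The submitters' processing notes name Cell Ranger 7.1.0 and the builds mRatBN7.2 and GRCm39. Barcodes were kept with at least 500 UMIs, 200 genes and at most 20% mitochondrial UMIs, and doublets predicted by Scrublet in scanpy 1.11.5 (expected rate 8%; 3.65% of chimera and 1.83% of SD rat barcodes called) were removed. Class markers came from fixed lists and the scoring rule was set after the files were seen. The members and lists were chosen with earlier results of these data known. Levels, shares and ratios were computed from summed counts with intervals from scipy 1.17.1. A ratio was read where both groups summed to at least 50 UMIs, and called past the fold at 1.5. Named genes were the 8 members, the 5 most alike genes, and those of the pathway list past the fold. Scripts were tested on simulated data. With 1 library per group no test was run. Depth was 118872850 UMIs for the chimera and 70957559 for the SD rat, so that 3 counts in SD rat EC-like cells equal 0.92 CPM. Alternatives covered the species limits, doublets, totals, scaling, gates, clusters and the pseudocount. No other columns of samples were used.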

Additional observations from a re-analysis of the deposited data

Results flagged for a closer look

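Some members stood past 1.5-fold in opposite directions in different classes under the same contrast. With 1 library per group, the difference between classes was not tested. Tap1, chimera rat over SD rat, was at 0.83 in T or NK-like and -0.83 in myocyte-like cells (log2 ratio). Tap1, mouse over rat cells of the chimera, was at 1.03 in EC-like, 1.43 in myeloid-like and 1.11 in B-like cells, and at -0.80 in FAP-like, -4.04 in tenocyte-like (1 mouse UMI) and -2.85 in MP-like cells (2 mouse UMIs). Psmb9 in the same contrast was at 0.69 in EC-like, 0.94 in myeloid-like and 3.47 in myocyte-like cells, the last from 1 cell, while tenocyte-like and MP-like mouse cells had 0 UMIs. Psmb10 was at 0.83 in EC-like and -0.76 in T or NK-like cells.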

How the results depend on the processing

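No paired analysis was possible because each group has 1 library, and for the same reason no replicate could be left out. For the 7 members without B2m summed, log2 ratios were 1.53 for EC-like over FAP-like SD rat cells, 0.28 and -0.07 for chimera rat over SD rat in EC-like and FAP-like cells, and 1.69 for mouse over rat EC-like cells. Species limits of 90% and 10% gave 0.46, 0.092 and 1.52 for the last 3. Keeping predicted doublets gave -0.010 in FAP-like cells. All own-species UMIs as the total gave 1.42 for the first and 1.60 for the last, and median-of-ratios scaling gave 1.16, -0.18 in FAP-like cells and 1.54. Classes from clusters gave 0.43 in EC-like cells. Leaving out Tapbp, an alternative added after seeing the data, gave 1.51 for the last. Single-member ratios turned for Nlrc5 in FAP-like cells, from 0.59 to -0.17 [-1.38, 0.87] at 90% and 10%. Psmb8 in myocyte-like cells went from 1.13 to -0.75 [-2.41, 0.69] with clusters. In cells with 0 leukocyte UMIs, an alternative added after seeing the data, it was at -1.21 [-3.01, 0.28]. Psmb9 in tenocyte-like cells went from 0.97 to -0.049 [-0.94, 0.84] in such cells. All these intervals included 0. B2m in mouse over rat myocyte-like cells went from -1.04 to 0.81 [0.13, 1.42] with clusters. The cause was not tested. Of 62 single-member ratios past the fold, 58 kept their direction under each alternative that gave a value. Both numbers include Tapbp ratios of mouse over rat cells, which rest on the near-empty rat row and show nothing about robustness. In EC-like cells, chimera rat over SD rat, genes higher past the fold numbered 1025, or 2310 with 1 UMI in each group as the minimum and 434 with 200 summed UMIs. Depth limits the smallest mouse classes, with 23 Schwann or glial-like, 30 myocyte-like, 34 MP-like and 35 tenocyte-like cells.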
